A study of Mus musculus with 6 samples.

Results

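The transcripts described here are those of the mitochondrial genome, measured by RNA-seq in the cerebral cortex of mice aged 6 months (n = 3, numbered 10, 11 and 17) and 24 months (n = 3, numbered 2, 4 and 5). All were male C57BL/6J mice of WT genotype on the same standard diet, and all were placed under isoflurane before cervical dislocation, so by the labels the groups, called younger and older below, differ in age alone. Of 55421 genes with a deposited count, 37 are encoded by the mitochondrial genome: 13 mRNA genes, 2 rRNA genes and 22 tRNA genes. In the files 24 of them, the rRNA and tRNA genes, carry a symbol that begins with mt-, and the 13 mRNA genes carry other symbols and were found by their gene identifier on the mitochondrial genome. They are named here by the GENCODE vM21 annotation of GRCm38.

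The mitochondrial genome is a small circle of DNA present in many copies per cell. It encodes core subunits of complexes I, III and IV of the respiratory chain and of the ATP synthase, together with the rRNAs and tRNAs that translate them inside the organelle. Both of its strands are transcribed into long precursors, and most mRNAs and the rRNAs are released when the tRNAs that lie between them are cut out. Neurons draw most of their ATP from this system, and all other subunits and all proteins that read the mitochondrial genome are made from nuclear genes.

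The largest differences between the ages among the mitochondrial genes lay in the tRNA genes, whose sequences are short and, in this genome, 59 to 75 bases long. The 5 shown first are the tRNA genes with a mean count of at least 50 whose levels differed most between the ages, and the last is the one that differed least. They are genes of the tRNAs for leucine (mt-Tl2), serine (mt-Ts2), valine (mt-Tv), cysteine (mt-Tc), arginine (mt-Tr) and glutamate (mt-Te). Sequences are those of GENCODE vM21, on the strand of the gene, and capitals mark the anticodon, found as the middle of a 7-base loop closed by a stem of 5 base pairs of which at least 4 matched.
mt-Tl2 (chrM:11671-11741, plus strand): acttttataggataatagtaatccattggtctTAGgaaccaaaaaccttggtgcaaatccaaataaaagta
mt-Ts2 (chrM:11613-11671, plus strand): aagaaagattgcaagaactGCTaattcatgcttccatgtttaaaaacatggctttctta
mt-Tv (chrM:1025-1093, plus strand): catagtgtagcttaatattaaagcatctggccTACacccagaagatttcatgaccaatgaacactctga
mt-Tc (chrM:5192-5257, minus strand): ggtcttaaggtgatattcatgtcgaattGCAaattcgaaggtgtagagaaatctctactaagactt
mt-Tr (chrM:9808-9875, plus strand): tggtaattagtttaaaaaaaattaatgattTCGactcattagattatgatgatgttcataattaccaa
mt-Te (chrM:14071-14139, minus strand): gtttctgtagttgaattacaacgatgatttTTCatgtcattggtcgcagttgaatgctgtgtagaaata
An anticodon was found in 21 of the 22 tRNA genes. The search accepted only a triplet that reads the amino acid of the gene name, so the match to the name was set in advance. The reads were 75 bases long before trimming, about the length of a whole tRNA gene, so a read counted on one of these genes can reach into its neighbours, and the counts do not separate mature tRNA from precursor. mt-Ts2, which by textbook knowledge lacks the D arm of other tRNAs, is the shortest of the 22 genes.

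Libraries held 29495379 to 36494240 counts on genes. Levels in CPM are relative to those totals. Fold changes are on the log2 scale for 24 against 6 months, after TMM scaling, from edgeR's quasi-likelihood test over the 32905 genes whose counts summed to 10 or more. Adjusted p-values are Benjamini-Hochberg values (FDR) over all of these genes. Genes with any count numbered 33974 to 35651 in libraries of younger mice and 40208 to 43561 in those of older mice. TMM factors were 1.04 to 1.10 at 24 months and 0.921 to 0.946 at 6 months, and when library totals replaced them the median log2 fold change of all genes tested moved from 0.15 to 0.33. In tissue homogenates such as these, fewer cells of a type and less RNA per cell cannot be told apart. Summed markers of neurons ran from 7519 to 9922 CPM with overlapping ages. Summed astrocyte markers were 4499 to 4814 CPM at 6 months and 5313 to 5620 at 24 months, and summed microglia markers 376 to 405 and 433 to 486 CPM. At an FDR of 10%, 3 of 10 neuron markers were lower, 1 of 8 astrocyte markers was higher, and 1 of 9 microglia markers was higher and 1 lower. Of the other lists, 1 of 5 red blood cell markers was lower, 1 of 6 choroid plexus markers was higher, and 0 of 8 oligodendrocyte and 0 of 7 endothelial markers passed. Over all genes tested, 10.0% were higher and 8.33% lower. None of the markers was at 0 in any library, and their part in the results below was not tested.

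Mitochondrial transcripts took between 2.61% and 3.25% of the counts. Their share was 2.61%, 2.77% and 2.68% in the younger mice 10, 11 and 17 and 2.86%, 2.81% and 3.25% in the older mice 2, 4 and 5. All older mice therefore lay above all younger mice, by 0.288 percentage points of means, and by 0.149 without the 24-month mouse 5, the highest. On the deposited TPM the ages overlapped, since the 24-month mouse 2 at 9.07% lay below the 6-month mouse 11 at 9.13%, as they did on counts without the rRNA genes. The mRNA genes held most of these counts, with 1.73% ± 0.064 (SD, n = 3) at 6 months and 1.86% ± 0.206 at 24 months, and the ages overlapped. The rRNA genes held 0.945% ± 0.119 and 1.09% ± 0.055, again with overlap. The tRNA genes held very little, 0.00840%, 0.0109% and 0.00852% in the younger mice and 0.0185%, 0.0147% and 0.0189% in the older mice. Their mean share was 1.87 times as high at 24 months, without overlap. Set against the mitochondrial rRNA and mRNA counts of the same library, which removes the nuclear transcripts from the scale, there were 3.46 ± 0.430 tRNA counts per 1000 at 6 months and 5.88 ± 0.621 at 24 months (SD, n = 3).

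**Figure D1:**
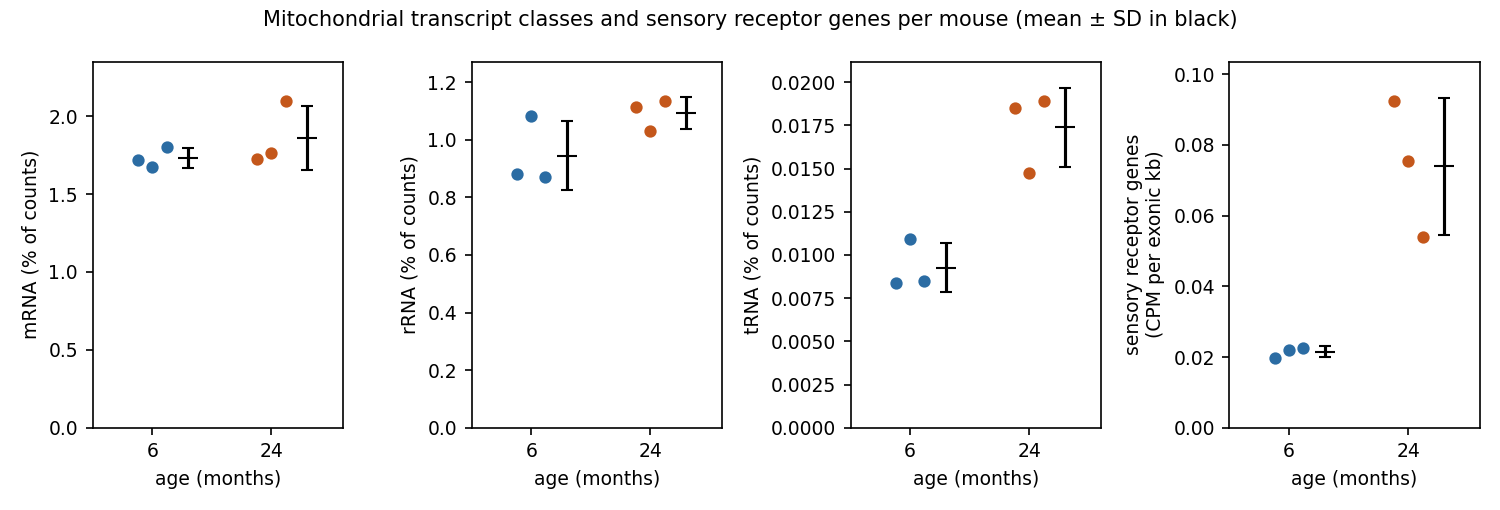
Share of all counts (%) on the mitochondrial mRNA, rRNA and tRNA genes and level of sensory receptor genes (CPM per exonic kb) in each mouse at 6 and 24 months, with mean ± SD in black. The tRNA share (0.00840% to 0.0109% against 0.0147% to 0.0189%) and the sensory receptor level do not overlap between ages, whereas the mRNA and rRNA shares do.

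Of the 37 genes, 31 passed the minimum of 10 counts and were tested (11 mRNA, 2 rRNA and 18 tRNA genes). None of them passed an FDR of 1% in the quasi-likelihood test, as was the case for all genes tested (0.0%, 0 of 32905). At an unadjusted p under 0.05, 17 of the 31 were higher at 24 months and 0 were lower, against 17.6% higher and 13.1% lower of all genes tested. The same count of 17 passed an FDR of 10% as higher, against 10.0% of all genes tested, and 0 passed as lower, against 8.33%. These 17 were 16 tRNA genes and the mRNA gene mt-Nd3. Most of the sequence of mt-Nd3 has an exact nuclear copy, described below, so its counts are uncertain. The tRNA genes mt-Tg and mt-Tr lie within the same copied stretch, and their counts are uncertain too. The likelihood ratio test of edgeR called 8 members higher at 1% FDR (7 tRNA genes and mt-Nd3), against 4.41% of all genes, and the Wald test of DESeq2 called 5, all tRNA genes, against 0.412%. Calls at an FDR of 10% depended on which mouse was left out. The 16 tRNA genes became 0 without the 6-month mouse 10, without the 6-month mouse 11 or without the 24-month mouse 4, whereas 2 were left when the 24-month mouse 2 was dropped, 7 when the 6-month mouse 17 was and 13 when the 24-month mouse 5 was. At an unadjusted p under 0.05, by contrast, 14 to 16 tRNA genes were higher in each of these fits. The share of all genes passing was not counted in the fits with a mouse left out.

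The classes differed in the size of the change. The median log2 fold change was 0.81 over the 18 tRNA genes tested (range 0.19 to 1.28), -0.02 over the mRNA genes and -0.03 over the rRNA genes, beside 0.15 for every gene tested and -0.14 for the 15793 of them with a mean above 1 CPM. Scaled by library totals alone, these medians became 1.00, 0.17 and 0.16, beside 0.33 over all genes tested and 0.05 over those above 1 CPM. With the library size set to the mitochondrial mRNA counts, the tRNA median was 0.89. On CPM, 17 of the 18 tRNA genes had all older mice above all younger mice, as had 5 of 11 mRNA genes and 1 of 2 rRNA genes, against 30.9% of all genes tested. In 0 of the 31 did all older mice lie below, against 4.75%. After TMM scaling, 15 tRNA genes, 1 mRNA gene (mt-Nd3) and 0 rRNA genes had all older mice above, against 20.0%, and 0 had them all below, against 16.3%.

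**Figure D2:**
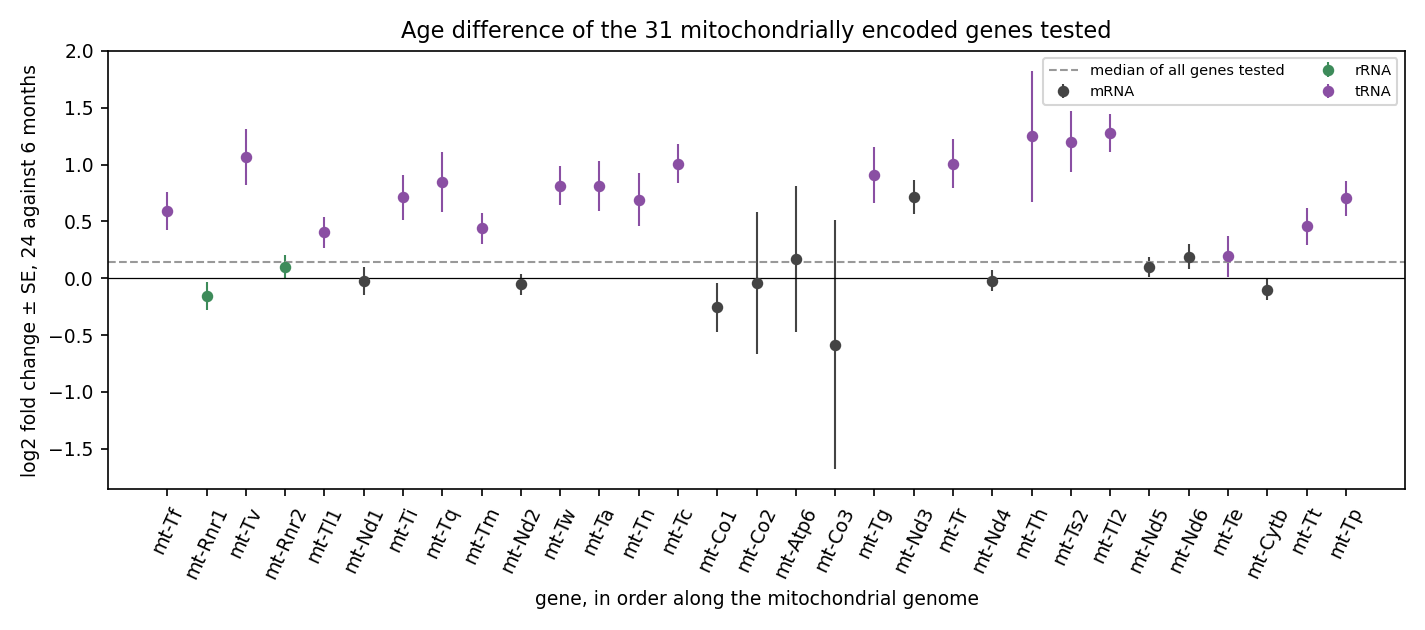
Log2 fold change of 24 against 6 months (± SE, edgeR with TMM scaling) for the 31 mitochondrially encoded genes tested, ordered along the mitochondrial genome and coloured by class. The tRNA genes lie between 0.19 and 1.28, while mt-Nd3 (0.72) is the mRNA gene that stands with them, and the wide bars of mt-Co2, mt-Atp6 and mt-Co3 rest on few counts.

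Among the tRNA genes, mt-Tl2, for the leucine tRNA that reads CUN codons, had the smallest p. Its CPM was 2.81, 2.63 and 2.30 in the younger mice 10, 11 and 17 and 8.54, 6.74 and 6.22 in the older mice 2, 4 and 5. The ages did not overlap, and the lowest 24-month mouse was more than 2 times the highest 6-month mouse. The log2 fold change was 1.28 (SE 0.17, adjusted p = 0.0312, higher in 3 of 3 mice). Its 5′ neighbour mt-Ts2, for a serine tRNA and also on the plus strand, was at 2.51, 3.67 and 1.98 CPM and at 9.97, 6.40 and 5.24 CPM, a log2 fold change of 1.20 (SE 0.27, adjusted p = 0.0527). mt-Th, for histidine and next to mt-Ts2, had 3 to 7 counts in the 6-month and 5 to 19 counts in the 24-month libraries, which overlapped, and its log2 fold change of 1.25 had an SE of 0.58 (adjusted p = 0.174). These 3 genes form a run between mt-Nd4 and mt-Nd5, whose own log2 fold changes were -0.02 and 0.10.

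mt-Tc, for cysteine and on the minus strand, was at 4.39, 5.07 and 4.94 CPM in the younger mice and at 11.2, 8.93 and 12.9 CPM in the older mice. The log2 fold change was 1.01 (SE 0.17, adjusted p = 0.0518), and the younger mice differed little among themselves (SD 0.361 CPM). mt-Tv, for valine and between the rRNA genes, was at 3.46, 4.85 and 2.70 CPM and at 10.3, 6.24 and 9.87 CPM, a log2 fold change of 1.07 (SE 0.25, adjusted p = 0.0552). The rRNA genes on either side of it were at -0.16 and 0.10. mt-Tr, for arginine and between mt-Nd3 and mt-Nd4l, was at 2.30, 2.11 and 1.69 CPM and at 6.14, 3.99 and 3.96 CPM, a log2 fold change of 1.01 (SE 0.22, adjusted p = 0.0518). It lies within the stretch copied on chromosome 1, described below, so its counts are uncertain.

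The tRNA genes with the highest levels per length were mt-Tq (glutamine), mt-Tp (proline), mt-Tm (methionine), mt-Tl1 (leucine, UUR codons) and mt-Tt (threonine). mt-Tq stood at 765 ± 243 TPM at 6 months and 1490 ± 524 TPM at 24 months (SD, n = 3). On CPM its mice ran 11.1, 19.8 and 12.4 and then 26.4, 21.9 and 40.3, so that the 6-month mouse 11 came close to the 24-month mouse 4, and after TMM scaling the ages overlapped. The log2 fold change was 0.85 (SE 0.26, adjusted p = 0.0763). mt-Tp followed with 627 ± 78.2 and 1103 ± 174 TPM, a log2 fold change of 0.70 (SE 0.15, adjusted p = 0.0518). mt-Tm, mt-Tl1 and mt-Tt changed less, with log2 fold changes of 0.44, 0.40 and 0.46 and adjusted p of 0.0755, 0.0919 and 0.0981. The ages did not overlap in any of these 3 genes.

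The other tRNA genes past an FDR of 10% were mt-Tw (tryptophan, 0.82), mt-Ta (alanine, 0.81), mt-Tg (glycine, 0.91), mt-Ti (isoleucine, 0.71), mt-Tn (asparagine, 0.69) and mt-Tf (phenylalanine, 0.59), with log2 fold changes in parentheses. Of these, mt-Tg lies within the stretch copied on chromosome 1, as mt-Tr does, so its counts are uncertain. Of the 18 tested, mt-Te and mt-Th did not pass. mt-Te was at 6.12, 7.75 and 7.84 CPM and at 8.54, 8.10 and 11.6 CPM, a log2 fold change of 0.19 (SE 0.18, adjusted p = 0.484), which became -0.01 in the fit without the 24-month mouse 5. The 4 tRNA genes below the minimum were mt-Ty (tyrosine), mt-Td (aspartate) and mt-Tk (lysine), with a count of 0 in all 6 libraries, and mt-Ts1 (serine), with 2 counts in the 6-month mouse 10 and 1 in the 24-month mouse 5. A count of 0 was read as allowing up to 3 counts per library, a fixed limit. mt-Td, mt-Tk and mt-Ts1 lie within the stretch copied on chromosome 1, described below, where this limit may not hold.

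**Figure D3:**
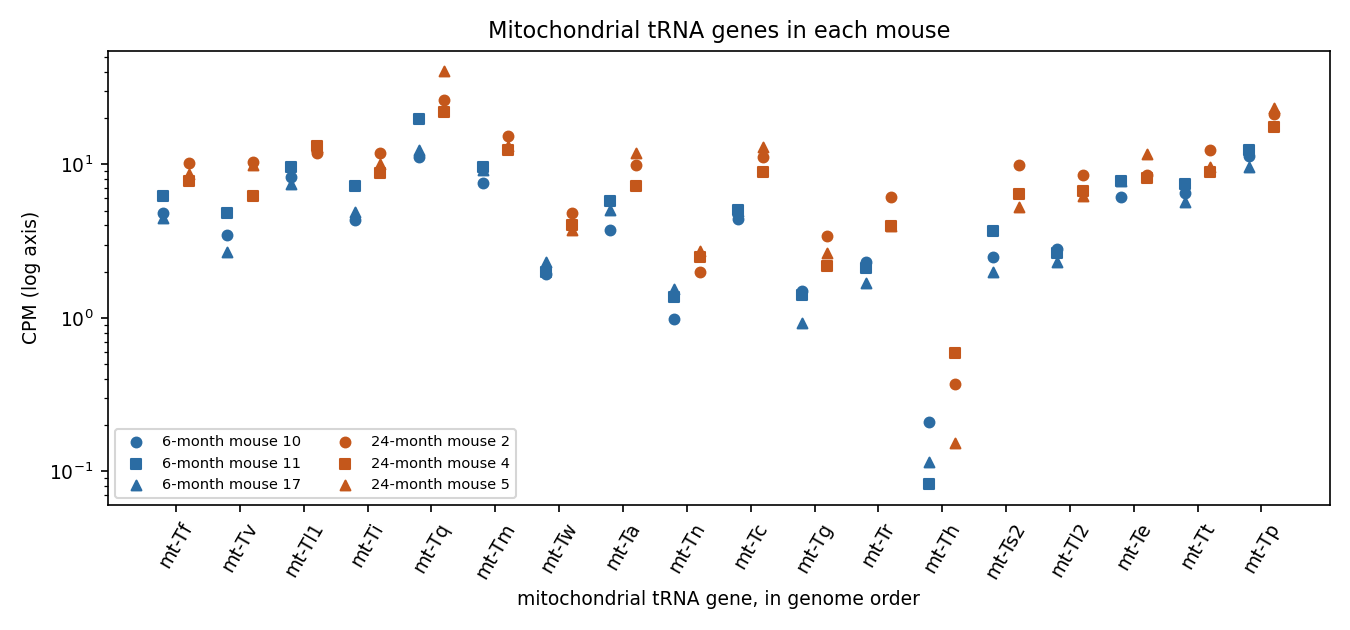
CPM (log axis) of the 18 tRNA genes tested, in each mouse at 6 months (blue) and 24 months (orange), in genome order. In 17 genes all older mice lie above all younger mice, and mt-Th, the gene with the lowest level, overlaps.

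The tRNA genes lie on both strands, 14 on the plus and 8 on the minus strand. The plus-strand genes held 46.2, 56.8 and 43.7 CPM in the younger mice and 105, 81.2 and 86.4 CPM in the older mice, a ratio of means of 1.86. The minus-strand genes held 37.8, 52.3 and 41.5 CPM and then 79.4, 66.2 and 103 CPM, a ratio of 1.89. The 24-month mouse 2 was the highest on the plus strand and mouse 5 on the minus strand. The library kit does not mark strand, so reads over a tRNA gene and reads of the opposite strand cannot be told apart.

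Density over a tRNA gene was often far below that of the gene next to it. A tRNA gene is about as long as a read, and by the study's methods a border read went to the gene it overlapped most. Its density is therefore not directly comparable with that of a longer gene. mt-Te lies beside mt-Cytb, at 8107 CPM per kb the densest gene, and was at 121 CPM per kb, 1.49% of it. In the cluster mt-Tw, mt-Ta, mt-Tn, mt-Tc and mt-Ty, by contrast, mt-Ta and mt-Tc were denser than the genes on either side, with 106 and 120 CPM per kb. Over the 17 tRNA genes with a mean count of at least 50, Spearman's rho between the density of the tRNA gene and that of its denser neighbour was 0.39, a description across genes that share the same 6 libraries.

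Beside the tRNA result stand the properties in which the libraries of the 2 ages differed. The 2001 sensory receptor genes (symbols Olfr, Vmn1r and Vmn2r), which encode odorant and pheromone receptors of the nose, were at 0.0197, 0.0221 and 0.0227 CPM per exonic kb in the younger mice and at 0.0925, 0.0754 and 0.0539 in the older mice, without overlap. The summed tRNA genes were at 55.9, 72.6 and 56.7 CPM per kb and at 123, 98.2 and 126 CPM per kb. Among the older mice the order depended on the tRNA measure. Mouse 5, the lowest on sensory receptor genes, was the highest on the summed tRNA genes and on those of the minus strand (103 CPM). Mouse 2, the highest on sensory receptor genes, was the highest on plus-strand tRNA genes (105 CPM) and on tRNA counts per 1000 mitochondrial rRNA and mRNA counts (6.51). On CPM, mt-Tl2, mt-Ts2, mt-Tr and mt-Tw ran in the order of the sensory receptor genes among the older mice, whereas all other tRNA genes tested did not. Genes with a count were also more numerous at 24 months, and the labels name no batch. The part of these differences in the tRNA result was not tested.

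The counts on mRNA genes were dominated by mt-Cytb, the subunit of complex III that carries both heme b groups, which had the highest TPM of all 55421 genes. It was at 9034, 8681 and 9250 CPM in the younger mice and at 9134, 9270 and 10276 CPM in the older mice. The ages overlapped, and the log2 fold change was -0.10 (SE 0.09, adjusted p = 0.482). mt-Cytb alone took 52.0% ± 0.653 of the mitochondrial mRNA counts at 6 months and 51.5% ± 2.20 at 24 months (SD, n = 3). These counts hold almost none of mt-Co2, mt-Co3, mt-Atp6, mt-Atp8 and mt-Nd4l, and those of mt-Co1 and mt-Nd4 are in part uncertain, as described below. The share is therefore one of counts and does not give the make-up of the mRNA.

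The subunits of complex I, which takes electrons from NADH, came next. mt-Nd1 stood at 8183 ± 147 TPM at 6 months and 8726 ± 1590 TPM at 24 months, with 2103, 2059 and 2084 CPM in the younger mice and 2076, 2189 and 2745 CPM in the older mice. Only the 24-month mouse 5 stood apart, and the log2 fold change was -0.02 (SE 0.12, adjusted p = 0.924). mt-Nd2 was at 3742 ± 95.2 and 3909 ± 368 TPM and mt-Nd4 at 3632 ± 76.2 and 3872 ± 336 TPM, with log2 fold changes of -0.05 and -0.02. mt-Nd5 was at 2061 ± 74.5 and 2386 ± 173 TPM. On CPM it was at 1009, 963 and 1026 in the younger mice and at 1182, 1197 and 1282 in the older mice, without overlap, but its log2 fold change after TMM scaling was 0.10 (SE 0.09, adjusted p = 0.469) and the ages then overlapped. With library totals it was 0.29 (adjusted p = 0.0697).

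mt-Nd6 is the complex I subunit encoded on the other strand, apart from the 12 other mRNA genes. It was at 420, 365 and 428 CPM in the younger mice and at 490, 509 and 580 CPM in the older mice. All older mice were higher on CPM, and the log2 fold change was 0.19 (SE 0.11, adjusted p = 0.264), or 0.38 (adjusted p = 0.0649) with library totals. Relative to the 12 other mRNA genes of the same library, mt-Nd6 held 0.0251, 0.0223 and 0.0244 counts per count at 6 months and 0.0293, 0.0297 and 0.0284 at 24 months. This ratio does not depend on the scaling, but the library kit does not mark strand, so it may hold reads of the opposite strand. Its log2 difference was 0.29, higher in 3 of 3 mice (p = 0.1 by a two-sided exact permutation test, the lowest value possible with 3 mice against 3). The log2 ratio of mt-Nd6 to mt-Nd5, which lies on the opposite strand and overlaps it at the 3′ end, differed by 0.09 (p = 0.3 by the same exact permutation test). With the log2 ratio of the rRNA genes these were 3 ratios, and the adjusted p was 0.3 for each.

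mt-Co1, the catalytic subunit of complex IV, was the most variable of the abundant mRNA genes. Its level was 2202, 2362 and 2819 CPM in the younger mice and 1802, 1945 and 3273 CPM in the older mice. The lowest and the highest values were both found at 24 months, and the log2 fold change was -0.25 (SE 0.22, adjusted p = 0.443). Without the 24-month mouse 5 it was -0.60 (adjusted p = 0.0326), past an FDR of 10%. As a share of mitochondrial mRNA counts, mt-Co1 took 12.8%, 14.1% and 15.7% in the younger mice and 10.5%, 11.0% and 15.6% in the older mice. The limit given for the share of mt-Cytb holds here too.

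The rRNA genes mt-Rnr1 and mt-Rnr2 encode the RNA of the small and the large subunit of the mitochondrial ribosome. mt-Rnr1 was at 2636, 3773 and 2927 CPM in the younger mice and at 3422, 2984 and 3130 CPM in the older mice, and mouse 11 of 6 months was the highest. Its log2 fold change was -0.16 (SE 0.12, adjusted p = 0.398), and 0.03 without that mouse. mt-Rnr2 was at 6189, 7044 and 5777 CPM and at 7715, 7322 and 8220 CPM. All older mice lay above, but the log2 fold change after TMM scaling was 0.10 (SE 0.10, adjusted p = 0.518). There were 0.426, 0.536 and 0.507 mt-Rnr1 counts per mt-Rnr2 count at 6 months and 0.444, 0.408 and 0.381 at 24 months. The log2 difference of this ratio was -0.25, with overlap (p = 0.2 by a two-sided exact permutation test).

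The remaining mRNA genes had almost no counts. mt-Co2 and mt-Co3, subunits of complex IV, had 2 to 3 and 0 to 4 counts per library. mt-Atp6 and mt-Atp8, subunits of the ATP synthase, had 1 to 7 and 0 to 1, and mt-Nd4l of complex I had 0 to 2. On so few counts no difference between the ages was detectable. These genes lie in the same stretch of the mitochondrial genome, where mt-Nd3, mt-Tg and mt-Tr separate mt-Nd4l from the others, and that stretch has a near-exact copy in the nuclear genome.

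The copy runs along chromosome 1 on the minus strand, at chr1:24611535-24616197 of GRCm38, as 7 annotated pseudogenes that match the mitochondrial bases chrM:6390-11042. The distances between the pseudogenes equal those between the mitochondrial genes in 5 of 6 gaps (140, 233, 2, 69 and -4 bases, where the last is an overlap), and the gap that holds mt-Tr was 74 bases on chromosome 1 and 73 in the mitochondrial genome. Of the 11 members that lie wholly within the matched bases, 8 had a mean under 10 counts, compared with 2 of the 26 others (mt-Ty and mt-Th). The mRNA and rRNA gene sequences were cut into windows of 69 bases, the read length after clipping, and compared with all nuclear transcripts of the annotation. An exact copy was found for 99.5% of the windows of mt-Co2 and of mt-Atp6, 99.9% of mt-Co3 and 98.7% of mt-Nd4l. It was found for 61.7% of mt-Nd4, 42.5% of mt-Co1, 6.29% of mt-Nd2 and 2.39% of mt-Nd5, and for 0% of mt-Nd1, mt-Nd6, mt-Cytb and both rRNA genes. mt-Atp8 also had 0%, although its position lies inside the matched bases, because the annotation has no transcript on that part of the copy. By the study's methods reads under a mapping quality minimum were not counted, and the part of this in the low counts was not tested. Counts of these genes, of mt-Nd3, described below, of mt-Tg and mt-Tr, and of mt-Nd4 and mt-Co1 in part, are therefore uncertain.

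**Figure D4:**
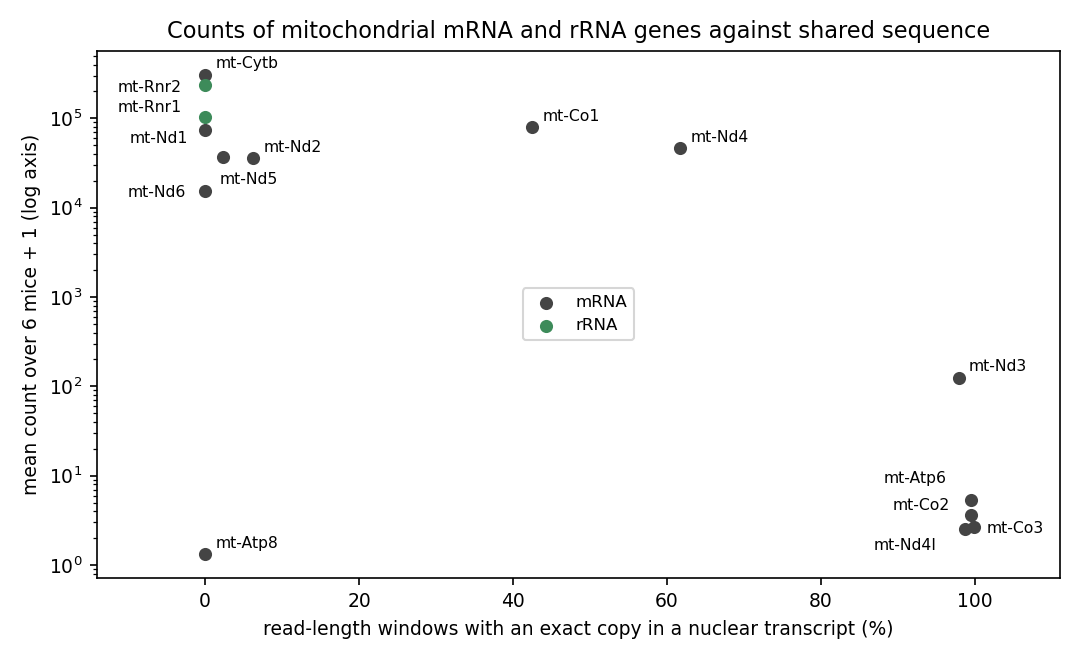
Mean count over the 6 mice plus 1 (log axis) of the mitochondrial mRNA and rRNA genes against the share of their 69-base windows that occur exactly in an annotated nuclear transcript. The genes near 100% have a mean under 10 counts except mt-Nd3. mt-Atp8 also has a mean under 10 counts. Its share of windows is 0% because no annotated transcript lies on that part of the copy, and the reason for its low count was not tested.

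The pseudogenes had few counts as well. The highest were Gm28437, the copy of mt-Co3, with 126, 144 and 122 counts in the younger mice and 112, 109 and 150 in the older mice, and Gm10925, the copy of mt-Atp6, with 61, 41 and 63 and then 41, 45 and 66. In both the ages overlapped, with log2 fold changes of -0.12 (SE 0.17) and -0.17 (SE 0.27) and adjusted p of 0.658 and 0.690. Gm28661, the copy of mt-Co2, and on chromosome 2 Gm13340 and Gm13341, copies of mt-Co1 and mt-Co2, had means of 32.5, 42.0 and 12.0 counts and adjusted p of 0.921, 0.279 and 0.691.

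mt-Nd3, a complex I subunit at chrM:9459-9806, lies in the middle of the copied bases and was the exception among the mRNA genes. It had 93, 97 and 86 counts in the younger mice 10, 11 and 17 and 153, 159 and 156 counts in the older mice 2, 4 and 5. The spread within each age was small, and the ages were far apart. The log2 fold change was 0.72 (SE 0.15, adjusted p = 0.0518, higher in 3 of 3 mice) and ran from 0.67 to 0.77 as each mouse was left out. An exact copy was found for 97.9% of its windows, and 6 of its 280 windows had none. As a measure of its mRNA, the counts of mt-Nd3 are therefore uncertain. Its annotated copy, Gm28438, differs from it by the substitution T3C, with positions counted from 1 at the 5′ end of the gene and the mitochondrial base first. The start of the gene and of the copy are shown because this base lies at the border with mt-Tg, and the capital marks the base that differs.
mt-Nd3 (chrM:9459-9475): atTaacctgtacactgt
Gm28438, the copy on chromosome 1: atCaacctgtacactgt
The neighbours of mt-Nd3 are mt-Tg and mt-Tr, both among the tRNA genes past an FDR of 10%, with log2 fold changes of 0.91 and 1.01. Both were denser than mt-Nd3, with 29.4 and 49.5 CPM per kb against 10.9. By the study's methods a read across a border went to the gene it overlapped most, and the number of such reads cannot be told from the counts. Gm28438 itself had 1 to 4 counts per library.

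Nuclear genes that replicate and transcribe the mitochondrial genome or process, degrade and translate its RNA were listed as the other genes of the pathway. Their regulators, such as Ppargc1a and Nrf1, were included. All 56 were tested, and 0 passed an FDR of 1%. At an FDR of 10%, 24 were lower at 24 months and 0 higher, against 8.33% lower of all genes tested and 2725 of the 15793 genes above 1 CPM, and at an unadjusted p under 0.05, 33 were lower and 0 higher, against 13.1% lower of all genes tested and 4243 of the 15793 above 1 CPM. The median log2 fold change was -0.29, beside -0.14 over genes above 1 CPM. On CPM all older mice lay below all younger mice in 12 of the 56, against 4.75% of all genes tested and 1476 of those above 1 CPM. After TMM scaling they did so in 37, against 16.3% and 5119. The calls depended on the scaling, the filter and the test. With library totals 0 were lower and 1 higher at an FDR of 10%, 5 were lower at an unadjusted p under 0.05, and the median was -0.10. At an FDR of 10%, 1 was lower with the mitochondrial mRNA library size, 1 with edgeR's filterByExpr, 7 without the count filter, 16 with DESeq2's size factors, 17 with the likelihood ratio test and 11 with DESeq2. Without the 6-month mouse 10 or 11 or the 24-month mouse 2 or 4, 0 were lower at an FDR of 10%, whereas leaving out the 6-month mouse 17 left 8 and leaving out the 24-month mouse 5 left 23. The share of all genes passing was not counted in these alternative fits. A change of this list therefore cannot be told from a change of the whole test.

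Of the factors that act on transcription, Tfb2m, which opens the promoter, had 311, 337 and 287 counts in the younger mice and 178, 241 and 250 in the older mice, a log2 fold change of -0.53 (SE 0.15, adjusted p = 0.0656). Mterf2, of the mitochondrial termination factor family, was at -0.50 (adjusted p = 0.0552), and Tfam, which packages and bends the mitochondrial DNA, at -0.28 (adjusted p = 0.0978). Polrmt, the mitochondrial RNA polymerase, had 869, 951 and 872 counts and then 702, 829 and 824. Its log2 fold change of -0.24 did not pass (SE 0.10, adjusted p = 0.147).

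Of the factors that handle the RNA, Lrpprc, which stabilises mitochondrial mRNAs, was at 93.9 ± 8.64 CPM at 6 months and 73.4 ± 12.4 at 24 months, with overlap, and its log2 fold change was -0.54 (SE 0.14, adjusted p = 0.0607). Fastkd5 and Fastkd2, RNA-binding proteins of the mitochondrial RNA granules, were at -0.56 and -0.37 (adjusted p = 0.0552 and 0.0746). Pnpt1, the polynucleotide phosphorylase that degrades RNA, was at -0.49 (adjusted p = 0.0672). Trnt1, which adds the CCA end to tRNAs, was at -0.43 (adjusted p = 0.0636), and Ptcd1, a pentatricopeptide protein, at -0.41 (adjusted p = 0.0633). In translation, Ptcd3 of the small ribosomal subunit and Mrrf, the ribosome recycling factor, were at -0.41 and -0.37 (adjusted p = 0.0636 and 0.0725).

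Nuclear-encoded subunits of the same complexes were read against the 8.33% of all genes tested and the 2725 of 15793 genes above 1 CPM that were lower at an FDR of 10%. For complex I, 4 of 36 genes were lower at that FDR, for complex III 2 of 9, for complex IV 1 of 11 and for the ATP synthase 5 of the 16 genes tested, with 0 higher in each list. The medians were -0.14, -0.09, -0.15 and -0.18. For complex I, the mitochondrial mRNAs other than mt-Nd4l together were at 5917, 5705 and 5933 CPM in the younger mice and at 6300, 6431 and 7433 CPM in the older mice, without overlap. Per count on nuclear complex I genes there were 1.37 ± 0.051 at 6 months and 1.53 ± 0.223 at 24 months (SD, n = 3), with overlap. For complex III, from mt-Cytb, the ratio was 5.57 ± 0.370 and 5.60 ± 0.696. For complex IV it was 1.15 ± 0.151 and 1.05 ± 0.318, from mt-Co1 alone, since mt-Co2 and mt-Co3 had almost no counts and were left out. As described above, the counts of mt-Co1, and of mt-Nd3 and mt-Nd4 in the complex I sum, are in whole or in part uncertain.

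**Figure D5:**
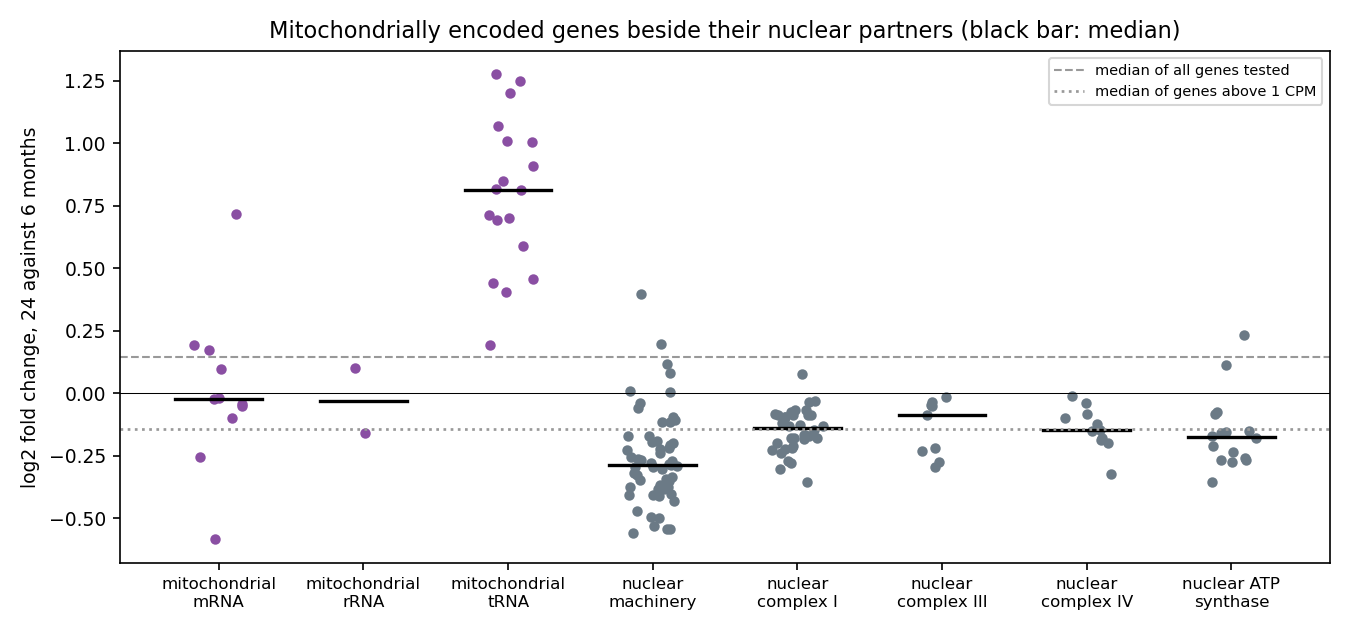
Log2 fold change of 24 against 6 months of each tested gene (points) and median (black bar) for the mitochondrial mRNA, rRNA and tRNA genes and for lists of their nuclear-encoded partners, with the medians of all genes tested (dashed) and of genes above 1 CPM (dotted). The tRNA median of 0.81 stands above both lines, and the machinery median of -0.29 below both.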

How the data were processed

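RNA-seq was analysed for the cortex of 3 mice of 6 months and 3 of 24 months. Per the labels, libraries were made from 10 ng of total RNA with a low-input kit. The authors trimmed the reads with Trim Galore 0.6.4, mapped them to GRCm38 with STAR 2.7.3a and deposited a count per gene made by featureCounts (Subread 2.0.0), with reads under a mapping quality minimum removed. The authors also deposited a TPM value per gene, made from the count and the exonic length. Both were used as deposited.

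Members were the 37 genes of the mitochondrial genome. Members and gene lists were chosen with earlier results of these data known. Age was tested with edgeR 4.0.16 (R 4.3.3): TMM scaling, at least 10 counts over the 6 libraries, quasi-likelihood test, no covariates, Benjamini-Hochberg adjustment over 32905 genes. Of the adjusted p-values of DESeq2 1.42.0, 5745 were NA and were left uncounted. The fit was tested on simulated counts with the same dispersion for every gene, few changed genes and no broad shift between the ages. That was a check of the code and does not show how the fit performs on these data. Single ratios were compared by exact permutation of mice with Python 3.11.15 and scipy 1.17.1.

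All members are accounted for. Values are given for the mRNA and rRNA genes, the 5 tRNA genes of highest TPM and the 10 of smallest p under 0.05, with the others of the class summarised. Named machinery genes are the 10 of smallest p under 0.05, Polrmt, Tfam and Lrpprc. Named copies are the 5 of highest mean count, and the copy of mt-Nd3 was added after its values were seen. Copies were sought with blastn 2.17.0 and exact words in the GENCODE vM21 transcripts, in place of the planned search of the genome. Members under 10 counts had no usable fold change, at library totals of 29495379 to 36494240 counts. Alternatives were other scalings, filters and tests, TPM in place of counts, and each mouse left out in turn. The minimum mean of 50 counts for some descriptions was chosen after seeing the data.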

Additional observations from a re-analysis of the deposited data

How the results depend on the processing

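No paired analysis was possible because the mouse numbers are not shared between the ages. Over the alternatives for results that answer a comparison, 129 values counted as unchanged and 26 moved. Medians and shares counted as unchanged when they moved by less than the spread between mice. Counts did so within a fixed fold, and ratios whenever their sign was kept, whatever their size. Medians over members with a mean of at least 50 counts, an alternative chosen after seeing the data, were among the unchanged values. Members at 1% FDR numbered 1 without the count filter, 8 with the likelihood ratio test and 5 with DESeq2. The tRNA genes at 10% FDR numbered 0 to 13 with a mouse left out. The mRNA and rRNA genes at an unadjusted p under 0.05 were 1 as reported, 4 with library totals, 2 with the mitochondrial mRNA library size, 2 without the filter, 3 with filterByExpr and 1 to 2 with a mouse left out. The mRNA median was 0.17 with library totals and 0.0903 with filterByExpr, and -0.123 to 0.0378 with a mouse left out. The rRNA median was 0.16 with library totals and -0.0828 to 0.124 with a mouse left out. The mitochondrial share differed by 0.768 points on TPM, a ratio of 1.09 against 1.11 on counts, and on counts by 0.149 to 0.370 with a mouse left out. Machinery genes at an unadjusted p under 0.05 were 5 lower and 1 higher with library totals, and 16 to 33 lower and 0 to 1 higher with a mouse left out.

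Single genes reversed as follows, and none of these had passed the test. With library totals the log2 fold change was 0.17 for mt-Nd1, 0.14 for mt-Nd2, 0.14 for mt-Co2, 0.17 for mt-Nd4, 0.0890 for mt-Cytb and 0.0307 for mt-Rnr1. With the mitochondrial mRNA library size it was 0.0548 for mt-Nd1, 0.0372 for mt-Nd2, 0.0389 for mt-Co2 and 0.0667 for mt-Nd4. Without the filter it was 0.0148 for mt-Nd1 and 0.0152 for mt-Nd4, and with filterByExpr 0.0897 for mt-Nd1, 0.0620 for mt-Nd2, 0.0909 for mt-Nd4 and 0.0117 for mt-Cytb. With a mouse left out it ran from -0.17 to 0.0854 for mt-Nd1, -0.20 to 0.14 for mt-Co2, -0.22 to 0.63 for mt-Atp6, -0.0893 to 0.0378 for mt-Nd4 and -0.26 to 0.0343 for mt-Rnr1, and mt-Te was at -0.0072 without the 24-month mouse 5. The cause was not tested.

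With 3 mice per age, small differences of the abundant genes depend on the scaling, which moves all genes together, and calls at 10% FDR fell below 16 with any mouse left out. Few counts limit the genes inside the nuclear copy, where 8 of 11 had a mean under 10 counts, the exceptions being mt-Nd3, mt-Tg and mt-Tr. The part of shared sequence in these counts was not tested.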
